A study of Homo sapiens with 6 samples.

Results

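LGR4 is a cell surface receptor with leucine-rich repeats that binds the secreted R-spondins, and its transcript was measured as 1 of 14884 named genes in HK2 cells, an immortalised epithelial line from the human kidney's proximal tubule. The gene was chosen by its measured values on these arrays, its level in cells with an shRNA against PGC-1alpha, set against cells with an shRNA against GFP and against all named genes, so its difference between those groups is described here without a test. The platform annotation gave it 1 probe set, of 53617 on the array. The controls were HK2 cells transduced with a lentivirus carrying pLKO.1-shGFP, directed at a protein that human cells do not make, and the other group carried pLKO.1 shPGC-1alpha, directed at a transcriptional coactivator of mitochondrial and oxidative genes. Both groups were grown in DMEM with serum and went through puromycin selection, and RNA was taken on day 5 after transduction, 24 hours after selection had ended. Each group held 3 arrays, called biological replicates 1 to 3 by the labels, and the labels name 1 construct per group, so effects of the insert's own sequence and of its intended target cannot be told apart. The level of the targeted transcript was not analysed here.

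R-spondins strengthen Wnt signalling. Without them, the membrane ubiquitin ligases RNF43 and ZNRF3 mark Frizzled receptors for removal from the cell surface. R-spondin bound to LGR4, LGR5 or LGR6 draws the ligases away, which leaves more Frizzled and LRP co-receptor to respond to Wnt, stabilise beta-catenin and activate TCF/LEF target genes. LGR4 is the most widely expressed of the 3 receptors and is needed for normal kidney development in mice.

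The promoter is shown because the LGR4 transcript is the one with the large difference. It lies on the minus strand of chromosome 11, and the RefSeq promoter table, in build GRCh38.p14, gives for its first 250 bases upstream of the start the region chr11:27472791-27473040. Capitals mark the CCAAT boxes, to which NF-Y is known to bind, and an octamer, ATTTGCAT, the motif of POU factors.
LGR4 promoter, 5′ to 3′: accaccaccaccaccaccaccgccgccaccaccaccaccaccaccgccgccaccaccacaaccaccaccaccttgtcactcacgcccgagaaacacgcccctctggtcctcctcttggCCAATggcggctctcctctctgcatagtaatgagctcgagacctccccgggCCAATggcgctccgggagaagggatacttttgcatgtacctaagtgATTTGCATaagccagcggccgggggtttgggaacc

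The window had 62.0% G and C, against a median of 58.0% over the 35116 promoters of the table. Both CCAAT boxes sat inside the longer string GGCCAATGG, at bases 134 to 126 and 83 to 75 before the start, and the octamer at bases 35 to 28. On either strand, 32.0% of all promoters held CCAAT, 1.03% held GGCCAATGG and 1.63% held ATTTGCAT. The longer CCAAT string and the octamer were chosen after the sequence was seen. There was no match for the cAMP response element TGACGTCA (1.65% of promoters), the estrogen-related receptor element TCAAGGTCA (0.319%) or the TCF/LEF string ATCAAAG (2.26%). The E-box CACGTG (6.34%), the hypoxia core ACGTG (18.5%), TATAAA (10.7%) and GGGCGG (42.6%) were also absent, where ACGTG is part of CACGTG. GGGNNTTCC (5.78%) was absent too, but it has 9 letters and is shorter than the usual NF-kB consensus. Its absence and share therefore do not describe NF-kB sites. These are matches of letters and not measurements of binding.

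On the log2 RMA scale, LGR4 stood at 6.39, 6.28 and 6.27 in shGFP replicates 1, 2 and 3 and at 8.84, 8.68 and 8.61 in shPGC-1alpha replicates 1, 2 and 3. All 3 shPGC-1alpha arrays were above all 3 shGFP arrays, with a gap of 2.22 between the highest control and the lowest shPGC-1alpha array. The group means were 6.31 ± 0.07 (SD, n = 3) and 8.71 ± 0.11 (SD, n = 3), a log2 difference of 2.40 (SE 0.08) or 5.27-fold. Over the 9 pairs of 1 array from each group, the difference ran from 2.22 to 2.57, or 4.67-fold to 5.93-fold. The spread of LGR4 within groups was close to that of other genes, whose median SD was 0.09 among shGFP arrays and 0.10 among shPGC-1alpha arrays. Bulk RNA from a culture cannot tell apart more LGR4 RNA in every cell and more cells that express it.

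Against all named genes, LGR4 went from the middle of the ranking into the upper part. Its mean was 7098th from the top of 14884 genes in the control group, at the 52.3rd percentile, where the median gene stood at 6.18. In the shPGC-1alpha group it was 1791st, at the 88.0th percentile, where the 90th percentile of genes stood at 8.93. On single arrays its percentile lay between 51.4 and 53.7 in the controls and between 87.1 and 89.0 in the other group. Probe sets differ in how brightly they bind, so these ranks place the signal and are not ratios of transcript numbers. Among the 11916 protein-coding genes alone, the mean moved from the 44.4th to the 85.5th percentile.

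The log2 difference of LGR4 was the 7th highest of all named genes, with CCL20, CXCL5, VNN2, SAA1, PIM2 and C3 above it and MAP3K8, at 2.39, just below. Counting decreases too, its size was 10th. Of 2610 other genes within 0.5 log2 units of its control level, 0 had a larger increase. Only 6 of all named genes did, and LGR4 was chosen by these values, so that count follows largely from the choice. The median log2 difference over all genes was -0.02.

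**Figure D1:**
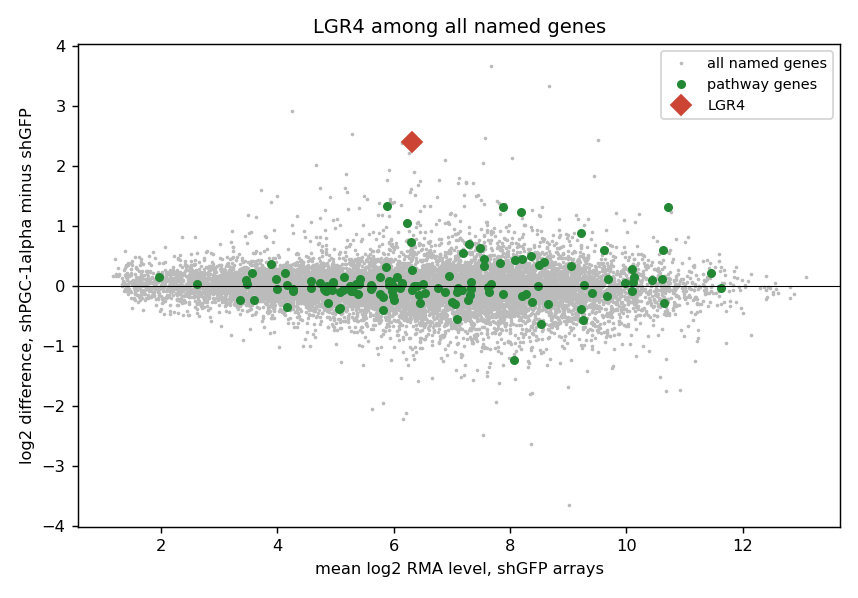
Each point is a named gene, placed by its mean log2 RMA level on the 3 shGFP arrays (x axis) and its log2 difference, shPGC-1alpha minus shGFP (y axis); green points are the measured genes of the pathway lists. LGR4, the red diamond at 6.31 and 2.40, lies above every pathway gene, of which the highest, ADCY8, is at 1.34. LGR4 was chosen by its values on these arrays.

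HK2 cells were checked against markers of the proximal tubule, of which 7 of 15 were measured. The kidney transcription factor PAX8 and the injury marker HAVCR1 were high in controls, at 11.44 and 11.97. The endocytic receptors LRP2, at 3.94, and CUBN, at 3.95, lay below 4.43, the 20th percentile of genes in controls. ANPEP, at 4.56, PAX2, at 5.58, and the water channel AQP1, at 5.97, lay above it but below 6.18, the median gene in controls. By the limma threshold given in the next paragraph, PAX8 rose by 0.38 (SE 0.07) and HAVCR1 fell by 0.36 (SE 0.06). The other tubule markers measured did not pass. Of 4 measured epithelial markers 3 fell by that threshold, as did 12.2% of all genes. KRT19 was at -1.42, EPCAM at -0.73 and KRT18 at -0.31, and KRT8, at -0.09, did not pass. Of 4 fibroblast markers 2 were measured, and both rose, LUM by 0.76 and DCN by 0.83, where 9.58% of all genes rose. LUM stood at 8.57 in controls and DCN at 3.80, below that 20th percentile, so their sum is mostly LUM. On the linear scale the summed epithelial markers ranged from 1986 to 2086 on shGFP arrays and from 1228 to 1279 on shPGC-1alpha arrays, and the summed fibroblast markers from 385 to 400.1 and from 624 to 705. The leukocyte marker CD68, also a lysosomal protein and the single one of 4 measured, rose by 0.34, and 3 endothelial markers did not pass (4.78 or less in controls). The part of such shifts in the results below was not tested.

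The other genes of the pathway were compared by limma with Benjamini-Hochberg adjustment over all 14884 genes, at an adjusted p of 0.05. At that threshold 9.58% of all genes rose and 12.2% fell. Of 200 pathway genes, 128 were measured, of which 22 (17.2%) rose and 13 (10.2%) fell, with a median log2 difference of 0.01. Their arrays did not overlap between groups in 33 genes that were higher and 25 that were lower, against 17.2% and 21.5% of all genes. None of the 128 had a difference as large as that of LGR4, which was 10th in size among all 14884 genes. LGR4 was chosen by its values on these arrays, so this follows largely from the choice. The signal was dim for 15 of the 128, whose higher group mean lay below 4.51, the 20th percentile of all genes on that measure.

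None of the relatives of LGR4 passed. LGR5, the stem cell receptor that also binds R-spondins, stood at 3.78, 4.03 and 4.14 on the shGFP arrays and 4.19, 4.17 and 3.98 on the shPGC-1alpha arrays. LGR6, the third R-spondin receptor, stood at 5.33, 5.60 and 5.96 and at 5.23, 6.09 and 5.54. In both genes the groups overlapped, with log2 differences of 0.13 (SE 0.11) and -0.01 (SE 0.24), and LGR5 lay below the 20th percentile in every array. The hormone receptors of the family gave -0.35 for LHCGR, -0.05 for TSHR and -0.03 for FSHR, and the relaxin family receptors 0.04 for RXFP1 and 0.15 for RXFP2. Of these 7 relatives 0 passed in limma, and 1, LHCGR, had an unadjusted p under 0.05. The signal was dim, as defined above, for 5 of the 7: LGR5, LHCGR, TSHR, RXFP1 and RXFP2. At such levels a difference may go unseen. RXFP2, at a control mean of 1.96, passed without shPGC-1alpha replicate 2 (0.30, limma adjusted p 0.0466).

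The ligands of LGR4 gave small differences. RSPO1 was at 6.05, 5.94 and 5.95 on the shGFP arrays and at 5.85, 5.87 and 5.74 on the shPGC-1alpha arrays, groups that did not overlap. Its log2 difference was -0.16 (SE 0.07) and did not pass (limma adjusted p 0.159). RSPO2, RSPO3 and RSPO4 differed by -0.05, 0.07 and 0.02, with SEs of 0.09, 0.13 and 0.06. NDP, or norrin, a Frizzled ligand that has also been reported to bind LGR4, differed by -0.04 (SE 0.12). Of 5 ligands measured 0 passed in limma and 0 had an unadjusted p under 0.05. TNFSF11, the bone cytokine RANKL, was not named here.

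The ubiquitin ligases that R-spondin and LGR4 act upon were both lower in mean. RNF43 was at 5.91, 5.85 and 5.70 on the shGFP arrays and at 5.48, 5.50 and 5.28 on the shPGC-1alpha arrays. It fell by 0.40 (SE 0.09; limma adjusted p 0.0185), and no arrays overlapped. The call was lost without shGFP replicate 1 (limma adjusted p 0.0602), shGFP replicate 2 (0.0642) or shPGC-1alpha replicate 3 (0.0521). ZNRF3 was at 7.44, 7.18 and 7.19 and at 7.04, 6.94 and 7.16, which did not overlap, but its difference of -0.22 (SE 0.10) did not pass (limma adjusted p 0.158). RNF43 and ZNRF3 are themselves known as Wnt targets that feed back on the pathway.

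**Figure D2:**
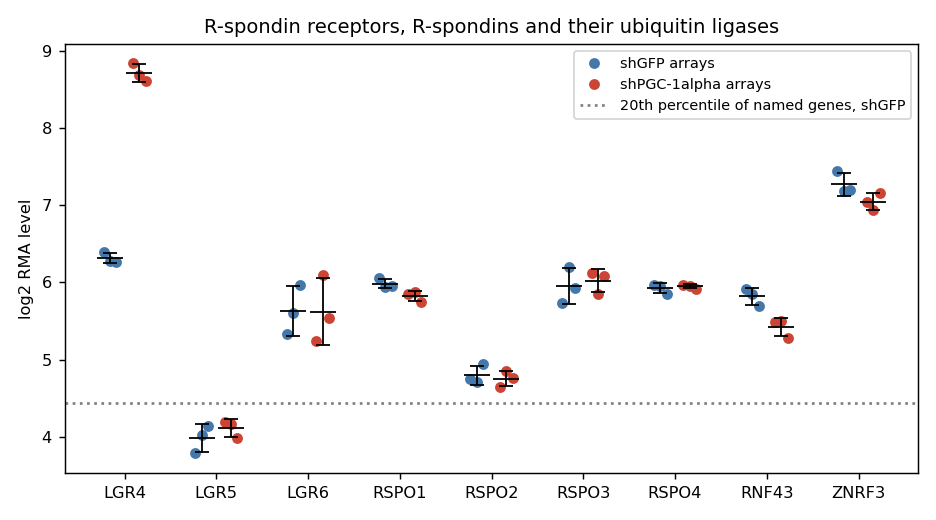
Log2 RMA levels (y axis) of LGR4, its R-spondin-binding relatives, the R-spondins and the ubiquitin ligases RNF43 and ZNRF3; each point is an array, black bars give the mean ± SD of 3 arrays, and the dotted line is the 20th percentile of named genes in the controls (4.43). The groups are 2.22 apart at their nearest for LGR4, are apart by less for RSPO1, RNF43 and ZNRF3, and overlap for LGR5, LGR6, RSPO2, RSPO3 and RSPO4.

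Among heparan sulfate proteoglycans, which can hold R-spondins and Wnts at the cell surface, GPC6 rose by 0.41 (SE 0.07) and SDC3 by 0.33 (SE 0.08), and SDC1 fell by 0.30 (SE 0.07). SDC4 at 0.22, GPC4 at 0.16, SDC2 at 0.05, GPC1 at 0.04 and GPC3 at -0.08 did not pass. The scaffold IQGAP1, a reported partner of LGR4, was at 0.12, and USP8, a deubiquitinase that acts on Frizzleds, at 0.01. With RNF43, 2 of the 12 measured ligases and partners (16.7%) rose and 2 (16.7%) fell, against 9.58% and 12.2% of all genes. The call of SDC1 was lost without shGFP replicate 2 (limma adjusted p 0.0738), shGFP replicate 3 (0.0652) or shPGC-1alpha replicate 1 (0.0618), and that of SDC3 without any single shGFP array (0.0775, 0.0742 and 0.0517 for replicates 1, 2 and 3) and without shPGC-1alpha replicate 3 (0.0610).

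Frizzleds, the Wnt receptors that the ligases remove, and their co-receptors showed 5 increases and 1 decrease among 16 measured genes. These are 31.2% and 6.25%, against 9.58% and 12.2% of all genes, in a list chosen with earlier results known. The median of the 16 was 0.02. The largest was that of ROR1, a receptor tyrosine kinase for WNT5A, which went from 8.25, 8.12 and 8.18 on the shGFP arrays to 9.47, 9.40 and 9.37 on the shPGC-1alpha arrays. It rose by 1.23 (SE 0.07) or 2.35-fold (limma adjusted p 6.8e-05). FZD1 rose by 0.71 (SE 0.08), FZD6 by 0.60 (SE 0.08), FZD7 by 0.45 (SE 0.07) and FZD5 by 0.39 (SE 0.08). The call of FZD5 was lost without shPGC-1alpha replicate 3 (limma adjusted p 0.0538). LRP6, the co-receptor that passes the Wnt signal to beta-catenin, went the other way, from 9.35, 9.19 and 9.14 to 8.86, 8.79 and 8.88, a fall by 0.38 (SE 0.08; limma adjusted p 0.0116). Its relative LRP5 was at -0.04 (SE 0.07). PTK7, FZD3 and FZD4, the next by p, were at -0.23, -0.36 and 0.09.

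Wnt ligands were little covered. Of 21 genes of ligands and their secretion 2 were measured. WNT2 was near 4.26 in controls and differed by -0.08, and WLS, which carries Wnts to the surface, fell by 0.27 (SE 0.07; limma adjusted p 0.0361). The WLS call held without shGFP replicate 1 and was lost when any of the other 5 arrays was left out, with limma adjusted p up to 0.118.

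Extracellular inhibitors of Wnt signalling went both ways, with 1 increase and 3 decreases among 17 measured and a median of 0.03. These are 5.88% and 17.6%, against 9.58% and 12.2% of all genes. DKK3, a divergent member of the Dickkopf family, rose by 0.55 (SE 0.06; limma adjusted p 0.0013). KREMEN1, the co-receptor of DKK1, fell by 0.29 (SE 0.06), a call lost without shGFP replicate 3 (limma adjusted p 0.0570). SFRP2 and WIF1, which bind Wnts, fell by 0.28 and 0.23, at control means of 4.86 and 3.36, and both calls were lost with any 1 of the 6 arrays left out (limma adjusted p up to 0.135 and 0.142). TRABD2A, DKK2 and DKK4, the next by p, were at 0.16, -0.23 and 0.38. DKK4 passed without shGFP replicate 3 (0.69, limma adjusted p 0.0027).

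Of 13 measured genes of cytoplasmic transduction, 1 rose and 1 fell, with a median of 0.01. GSK3A, a kinase that marks beta-catenin for destruction, rose by 0.33 (SE 0.06; limma adjusted p 0.0087). FRAT1, which binds GSK3 and holds it from beta-catenin, fell by 0.38 (SE 0.10), a call that held without shPGC-1alpha replicate 2 and was lost when any of the other 5 arrays was left out (limma adjusted p up to 0.113). APC and the ubiquitin ligase subunit BTRC were at -0.14 and -0.12, and the inhibitor NKD2 at -0.17. CTNNB1, which encodes beta-catenin, was not named here.

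Of 18 TCF/LEF factors and nuclear cofactors, 10 were measured. LEF1 was the only TCF/LEF factor among them, as TCF7, TCF7L1 and TCF7L2 were not named here. Of the 10, 1 (10%) rose and 2 (20%) fell, against 9.58% and 12.2% of all genes, with a median of -0.10. BCL9, which links beta-catenin to the PYGO proteins, fell by 0.57 (SE 0.07; limma adjusted p 0.0012). Its relative BCL9L rose by 0.35 (SE 0.10) on its brighter probe set, but the mean of its 2 probe sets differed by 0.06. PYGO1 fell by 0.28 (SE 0.08). The call of BCL9L was lost with any 1 array left out (limma adjusted p 0.0519 to 0.118), and that of PYGO1 when any array but shGFP replicate 1 was left out (up to 0.141). LEF1, a factor and Wnt target, was at 0.22 around a control mean of 4.14, EP300 at -0.17 and PYGO2 at -0.12.

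Genes often used as Wnt/beta-catenin targets had 8 increases and 0 decreases among 23 measured, and a median of 0.08. The increases were 34.8% of the list, against 9.58% of all genes. The list was chosen with earlier results of these data known, so the contrast is not a test. It also holds 0 dim genes, and with dim genes left out 1614 of 11907 genes rose. CLDN1, a tight junction protein, rose by 1.33 (SE 0.07) and the hyaluronan receptor CD44 by 1.33 (SE 0.07; limma adjusted p 6.6e-05). The neural adhesion genes NRCAM and L1CAM rose by 1.05 (SE 0.09) and 0.61 (SE 0.08), and the AP-1 member FOSL1 by 0.89 (SE 0.10). The other 3 that rose, CCND1, PPARD and SOX9, were at 0.64, 0.43 and 0.34. The call of SOX9 was lost without shGFP replicate 1 (limma adjusted p 0.0953) or 2 (0.107), and without shPGC-1alpha replicate 1 (0.0949) or 3 (0.100). JUN, SNAI2 and BAMBI did not pass, at 0.29, -0.28 and 0.27, and SNAI2 passed without shGFP replicate 1 (-0.36, limma adjusted p 0.0410). Some genes known as more direct readouts of beta-catenin are named here by a choice made after the values were seen. They lay near 0 and do not stand for all known Wnt targets. Of others, CCND1 rose by 0.64, RNF43 fell by 0.40, and LEF1, at 0.22, did not pass. AXIN2 was at 5.64, 5.69 and 5.50 on the shGFP arrays and 5.77, 5.49 and 5.66 on the shPGC-1alpha arrays, which overlapped, and differed by 0.03 (SE 0.09). SP5 and NKD1 both differed by 0.04, with SEs of 0.15 and 0.09, and MYC by -0.08 (SE 0.06). Many genes of this list also answer to other pathways, and the fibroblast and epithelial markers above moved between the same groups; their part in these increases was not tested.

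**Figure D3:**
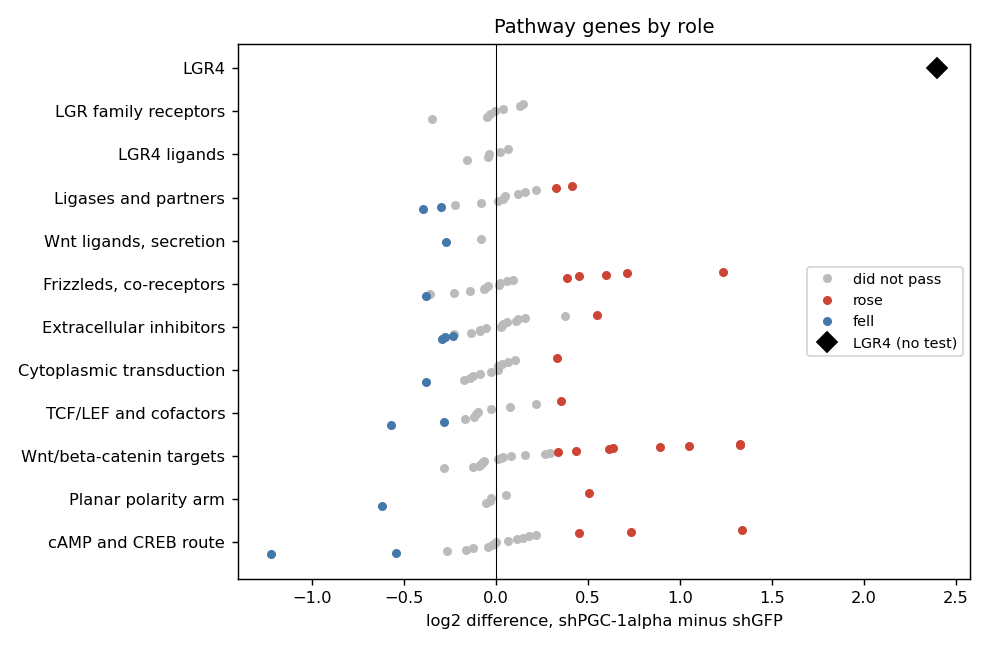
Log2 difference, shPGC-1alpha minus shGFP (x axis), of each measured pathway gene, by role (rows); red points rose and blue points fell in limma at an adjusted p of 0.05, grey points did not pass, and the black diamond is LGR4, which was not tested. Increases outnumber decreases among Frizzleds and co-receptors (5 and 1) and among targets (8 and 0), and 0 of the LGR relatives and ligands passed. Of all genes 9.58% rose and 12.2% fell, and the lists were chosen with earlier results known.

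The planar polarity arm, through which Wnts direct cell orientation without beta-catenin, had 6 measured genes of 15. PRICKLE1 fell by 0.62 (SE 0.08; limma adjusted p 0.0015) and PRICKLE2 rose by 0.51 (SE 0.07) on its brighter probe set, with 0.28 as the mean of its 2 probe sets (limma adjusted p 0.0516). MAPK9, DAAM2 and RHOA did not pass, at -0.06, 0.06 and -0.03.

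LGR4 has also been reported to act through cAMP and CREB, and of 17 measured genes of that route 3 rose and 2 fell, with a median of 0.00. MITF, a transcription factor reported downstream of this route, went from 8.23, 8.01 and 7.99 on the shGFP arrays to 6.89, 6.92 and 6.74 on the shPGC-1alpha arrays. It fell by 1.22 (SE 0.09; limma adjusted p 0.00021). ATF4, another gene reported there, was at 0.11 (SE 0.07). The adenylyl cyclases differed in direction: ADCY8 rose by 1.34 (SE 0.14) and ADCY9 by 0.73 (SE 0.07), whereas ADCY6 fell by 0.54 (SE 0.07) on its brighter probe set and by 0.26 as the mean of its 2 probe sets. The CREB coactivator CRTC2 rose by 0.45 (SE 0.07), while CRTC3 and CRTC1 were at -0.26 and -0.12 and ADCY2 at 0.22.

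The 6 nearest named genes on each side of LGR4 in the RefSeq gene table of GRCh38.p14 were compared to see whether the neighbourhood differed with it. The gene table placed from 2 (LIN7C) to 38 (GAS2) other genes between them and LGR4, so several are not close neighbours. Of these 12 genes 1 rose and 1 fell, which is near the 9.58% and 12.2% of all genes. LIN7C, a polarity scaffold and the nearest named gene on 1 side, past 2 genes that were not named here, went from 8.30, 8.23 and 8.28 on the shGFP arrays to 8.65, 8.63 and 8.59 on the shPGC-1alpha arrays. It rose by 0.36 (SE 0.06; limma adjusted p 0.0057). KIF18A, a mitotic kinesin farther along the same side, fell by 0.46 (SE 0.06; limma adjusted p 0.0026). On that side BDNF, a neurotrophin, was at -0.27 (SE 0.09; limma adjusted p 0.0818) and its antisense transcript BDNF-AS, METTL15 and MIR610 were each at -0.10. On the other side FIBIN, the nearest, was at -0.14 (SE 0.12), and ANO3, LUZP2, CCDC179, SVIP and GAS2 lay between -0.22 and 0.22. Control means on that side were low, from 3.10 for CCDC179 to 4.90 for SVIP. ANO3, at a control mean of 3.72, passed without shPGC-1alpha replicate 2 (0.33, limma adjusted p 0.0487).

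**Figure D4:**
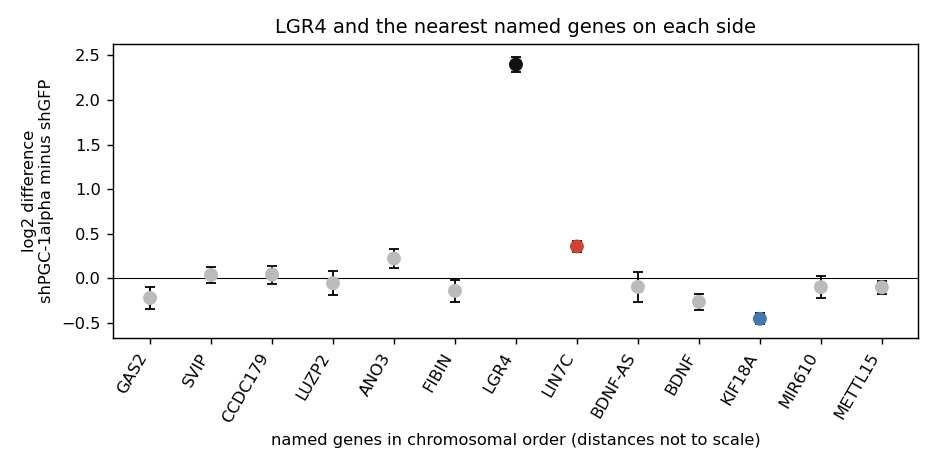
Log2 difference, shPGC-1alpha minus shGFP, with its SE (y axis) for LGR4 and the 6 nearest named genes on each side, in chromosomal order but not to scale (x axis); red rose, blue fell and grey did not pass in limma, and LGR4, in black, was not tested. LGR4 stands at 2.40 and the 12 neighbours between -0.46 and 0.36.

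The genes most like LGR4 were found by the Euclidean distance between profiles over the 6 arrays, each centred on its own mean, among 11915 other protein-coding genes. The nearest was PIM2, a survival kinase, at a distance of 0.192, followed by complement C3 (0.223), the ectonucleotidase ENPP3 (0.300), the ubiquitin ligase RNF144B (0.334), the acute-phase protein SAA1 (0.466) and ZC3H12A (0.473), an RNase that degrades cytokine transcripts. The median distance over all genes was 2.97. Pearson's r over the 6 arrays was 0.998 for PIM2 and ENPP3, 0.997 for C3 and ZC3H12A, 0.9996 for RNF144B and 0.990 for SAA1. Since all 7 genes differ between the same 2 groups, these r values mostly restate that difference. RNF144B stood at 8.05, 8.01 and 8.02 in the controls and at 10.30, 10.11 and 10.08 in the other group, with replicate 1 highest in each, as for LGR4. It was picked out after the values were seen, and its control SD was 0.02. In PIM2, C3, ENPP3, SAA1 and ZC3H12A shGFP replicate 1 was not the highest control.

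**Figure D5:**
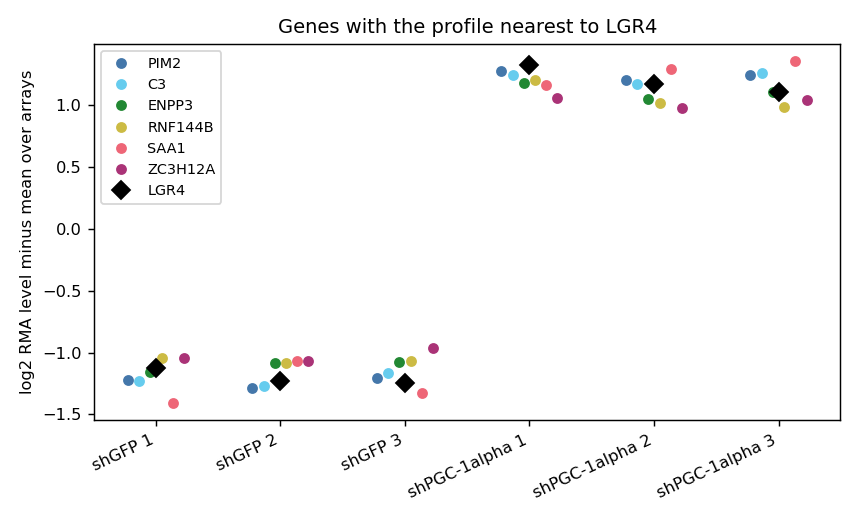
Log2 RMA level minus each gene's mean over the 6 arrays (y axis) on each array (x axis) for LGR4 (black diamonds) and the 6 protein-coding genes with the nearest profiles. All 7 genes lie between -1.40 and -0.96 on the shGFP arrays and between 0.98 and 1.35 on the shPGC-1alpha arrays.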

How the data were processed

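The deposited table holds log2 expression values for 53617 probe sets on 6 arrays, made by the authors with RMA in Affymetrix Expression Console, per the submitters' processing notes; their versions were not given in the sources used here. RMA corrects background and makes the arrays' distributions alike, so a shift of most transcripts in 1 direction would be reduced. It gives no counts or detection calls, so precision rests on how many arrays there are. The values were used as deposited. Array medians lay between 5.00 and 5.04, and arrays correlated at 0.988 to 0.992 within groups and 0.982 to 0.987 between groups. The platform table gave 1 gene to 16098 probe sets, several to 0 and none to 37519. All 16098 matched RefSeq (GRCh38.p14), giving 14884 genes, with the brightest probe set for each of the 779 genes that had more than 1. Groups and replicate numbers came from the titles. Nothing in the labels says whether cultures were transduced separately, so the spread that the p-values measure may be technical.

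The comparison used lmFit and eBayes of limma 3.58.1 (R 4.3.3) over all genes, without filter or block, with Benjamini-Hochberg adjustment and a threshold of 0.05; the script was tested on simulated data. An exact permutation test of groups this small has 0.1 as its smallest p. The gene and the lists were chosen with earlier results of these data known. The text names LGR4, all measured relatives, ligands, ligases and partners, up to 5 genes past the threshold and 3 others per list by p, the 6 nearest named genes on each side and the 6 nearest profiles; other names were chosen after values were seen. Alternatives were each array left out, the replicate block, other scalings, a filter on dim genes, the mean of probe sets and eBayes with trend and robust settings.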

Additional observations from a re-analysis of the deposited data

How the results depend on the processing

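The log2 difference of LGR4 ran from 2.34 to 2.45 with each array left out and was 2.40 to 2.42 under the other scalings, on the linear scale and with the replicate block; its rank among increases was 6th to 8th. Of the 45 pathway, neighbour and marker genes past the threshold, all 45 kept their direction and 32 their call under every alternative run; 12 lost it with some array left out.

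With an array left out, all genes counted 1011 to 1170 higher and 1301 to 1502 lower. Counts per list were then as follows, higher and lower in turn: LGR relatives 0 to 1 and 0, partners 1 to 2 and 0 to 2, Wnt ligands 0 and 0 to 1, Frizzleds and co-receptors 4 to 5 and 1, inhibitors 1 to 2 and 0 to 1, cytoplasmic genes 1 and 0 to 1, nuclear cofactors 0 and 1 to 2, targets 7 to 8 and 0 to 1, and neighbours 1 to 2 and 1. R-spondins and other ligands stayed at 0 and 0, planar polarity genes at 1 and 1 and cAMP and CREB genes at 3 and 2.

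With the replicate block, LGR relatives lower were 1 (LHCGR, limma adjusted p 0.0300), Wnt ligands lower 0, inhibitors lower 1, and nuclear cofactors higher 0 and lower 1. With arrays centred on their medians, Wnt ligands lower were 0, inhibitors lower 1 and nuclear cofactors lower 1. With quantile normalization repeated, nuclear cofactors were 0 higher and 1 lower. Above the 20th percentile 1 target was lower. With the mean of probe sets, 0 nuclear cofactors and 0 planar polarity genes were higher. With trend and robust settings 5 partners were higher, and 1 inhibitor, 1 target and 2 neighbours lower.

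The replicate numbers share only a number: deviations of same-numbered arrays correlated at 0.12, 0.09 and 0.02, and shGFP replicate 3 correlated best with shPGC-1alpha replicate 2 (0.06). The block gave 1221 genes higher and 1552 lower, against 1426 and 1817.

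Genes that did not pass and lay near 0 changed sign. LGR6 was 0.0048 with arrays centred and 0.015 with quantile normalization repeated, and -0.243 to 0.186 with an array left out. The ranges with an array left out were -0.277 to 0.027 for BDNF-AS, -0.048 to 0.120 for CCDC179, -0.028 to 0.124 for DAAM2, -0.103 to 0.068 for FSHR, -0.186 to 0.074 for GPC3, -0.154 to 0.065 for LUZP2, -0.180 to 0.044 for MIR610, -0.166 to 0.054 for NDP, -0.077 to 0.0079 for RHOA, -0.093 to 0.024 for RSPO2, -0.045 to 0.191 for RSPO3, -0.015 to 0.043 for RSPO4, -0.103 to 0.125 for RXFP1, -0.016 to 0.106 for SDC2, -0.027 to 0.089 for SVIP, -0.114 to 0.049 for TSHR, -0.046 to 0.058 for USP8 and -0.182 to 0.0059 for WNT2.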
